A study of Mus musculus with 8 samples.

Results

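The collagen chains are the genes that encode the α chains of the collagen trimers, and they were chosen by name as every gene symbol of the form Col, a type number, the letter a and a chain number. This gave 44 of the 19301 genes measured in mouse tendon stem cells (TSCs). By the usual division of the family, 11 were fibrillar chains (types I, II, III, V, XI, XXIV and XXVII), 9 were fibril-associated collagens with interrupted triple helices (FACIT), 6 were the basement membrane chains of type IV, and 18 were other chains (beaded filament, network-forming, anchoring, transmembrane and multiplexin types). This rule uses no measured value.

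TSCs are the resident progenitor cells of tendon, and those used here were primary cells from mouse patellar tendon, kept in culture. One group, LG, was grown in low glucose DMEM with DMSO, and the other, HFHG, was grown in high glucose medium with the saturated fatty acid palmitic acid, both for 4 days. Each group had 4 biological replicates, and both groups shared the same cell type and no genetic change. The comparison asks how a medium that models the sugar and lipid load of diabetes changes the transcripts of these cells. Since both glucose and palmitic acid differed between the groups, their effects cannot be told apart. The p-values measure the spread between these 8 cultures.

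Collagens are built from chains that wind in groups of 3 into a triple helix. Fibrillar collagens line up into the cross-banded fibrils that carry load in tendon, where type I is the main component, type III is the partner that is abundant in young and healing tissue, and types V and XI start fibril growth and limit fibril width. FACIT collagens sit on the fibril surface, type IV forms the sheet of the basement membrane, and type VI forms beaded filaments around the cell.

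Values are FPKM, the fragments of a gene divided by its length and by the fragments of the library, so levels can be set side by side between genes. The libraries held 35385644 to 37362725 reads in HFHG and 34308108 to 36308533 in LG, and all 44 chains gave whole read counts. In bulk RNA, fewer cells of a type and less RNA per cell cannot be told apart. Among fixed marker lists, the 8 tendon genes summed to 751 to 775 FPKM in HFHG and 382 to 394 FPKM in LG, mostly from Thbs4 and Tnc. By limma, where 34.0% of all genes tested were higher in HFHG and 30.8% lower, 5 of the tendon list were higher and 2 lower. The same shares of all genes apply to the counts of the lists that follow. Scx, the tendon transcription factor, had a mean of 2.27 FPKM in HFHG and 1.45 FPKM in LG, and Tnmd of 1.10 and 0.614 FPKM. The 2 lower were Mkx, with means of 6.73 FPKM in HFHG and 8.62 FPKM in LG, and Egr1, with 15.99 and 21.09 FPKM. By qPCR, the paper reports lower Scx and Tnmd in HFHG medium and no significant change of Mkx. The reason for this difference was not tested. The 6 mesenchymal stem cell genes, of which 4 were higher and 2 lower, summed to 1433 to 1468 FPKM in HFHG and 1164 to 1173 FPKM in LG. The 10 macrophage genes summed to 1727 to 1776 FPKM in HFHG and 1897 to 1978 FPKM in LG, mostly from Lyz2, and 8 of them were lower in HFHG, such as Adgre1 (26.5 against 38.0 FPKM) and C1qa (18.6 against 36.6 FPKM). The marker sums for smooth muscle and pericytes were 6.67 to 7.61 FPKM in HFHG and 4.36 to 4.98 FPKM in LG, with both tested markers higher. Those for endothelium were 1.54 to 1.69 and 1.86 to 2.18 FPKM. The 2 tested endothelial markers went opposite ways, with Vwf lower in HFHG (0.393 against 1.04 FPKM) and Tek higher (0.800 against 0.547 FPKM). No HFHG library of Vwf reached 0.5 FPKM, so Vwf entered the test only through LG, and its fall is given as a description. Schwann cell markers summed to 4.33 to 5.04 FPKM and 3.55 to 4.28 FPKM, and 1 of the 3 tested was higher and none lower. The sums of these 6 lists did not overlap between the groups, and their part in the collagen values was not tested. Osteoblast, epithelial, adipocyte and skeletal muscle markers summed to at most 1.30 FPKM in any library, with overlapping groups. LG replicate 4 stood apart from the other LG libraries on the second principal component, at 13.8 against -7.93 to -1.82, and without it the counts of collagen chains higher and lower in HFHG were 20 and 2.

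Collagen transcripts were more abundant in HFHG than in LG. Of the 44 chains, 22 had at least 0.5 FPKM in at least 4 libraries and entered the limma test, and of these 20 were higher in HFHG and 1 was lower at an adjusted p below 0.05. Over all 11710 genes tested, 34.0% were higher and 30.8% were lower by the same rule. A fold change above 2 with an unadjusted p below 0.05 is the threshold of the study's methods. The study's test and filter are not named there, so its own counts of genes may differ from those here. In this fit, 8 chains passed that threshold upward and none downward, where 3.68% of all genes tested passed upward and 1.65% downward. These chains were Col12a1, Col6a1, Col5a1, Col27a1, Col24a1, Col1a1, Col6a2 and Col11a1, and Col27a1 passed the filter on low values only through its HFHG libraries. With a pseudocount of 1 in place of 0.1 the count was 5 chains, as Col11a1 (log2 fold change 0.81), Col24a1 (0.78) and Col27a1 (0.58) no longer passed, and 197 genes in all passed upward in place of 431. The median log2 fold change was 0.68 over the 22 chains and 0.02 over all genes tested. In 19 of the 22 chains every HFHG library lay above every LG library, against 31.1% of all genes tested, and in 1 chain, Col5a3, every HFHG library lay below, against 28.1%.

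**Figure D1:**
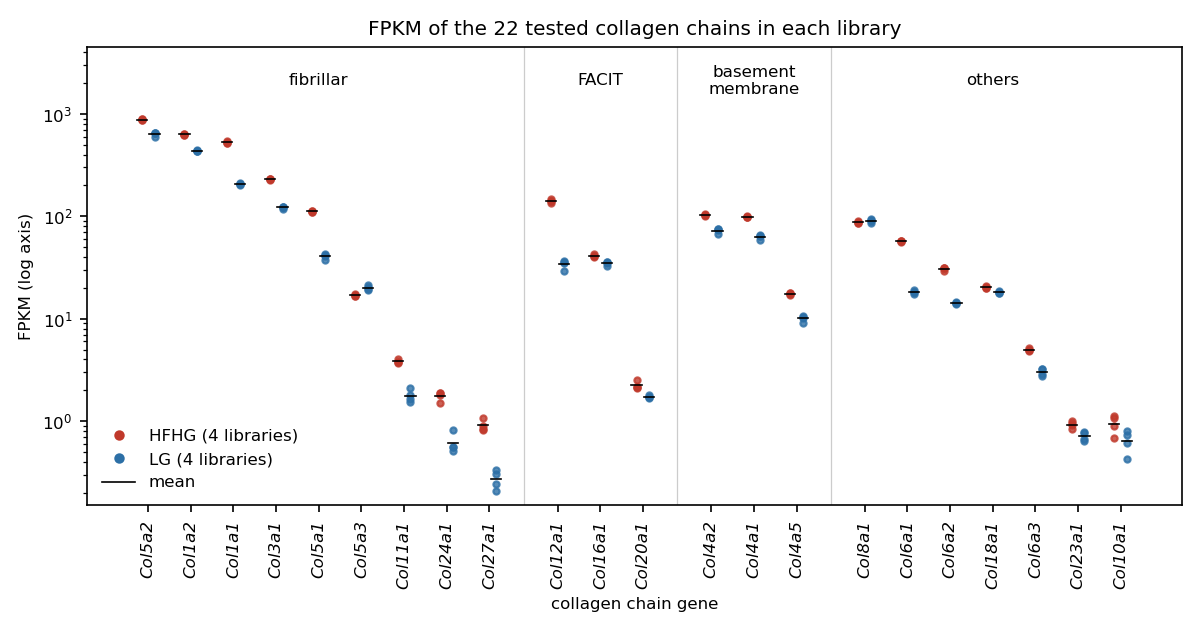
FPKM (log axis) of the 22 tested collagen chains, arranged by class and by mean level, with a point for each of the 4 HFHG (red) and 4 LG (blue) libraries and a bar for the group mean. HFHG points lie above LG points for all but Col5a3, where they lie below, and Col8a1 and Col10a1, where the groups overlap.

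The chains differed in how far they moved. For the counts of each class, the shares over all genes tested were 34.0% higher and 30.8% lower. By class, 8 of 9 tested fibrillar chains were higher and 1 was lower, with a median log2 fold change of 1.09. With a minimum of 1 FPKM, which leaves out Col27a1, 7 of 8 were higher and the median was 0.999. All 3 tested FACIT chains were higher, with a median of 0.35 that lay far below the value of Col12a1. The 3 tested basement membrane chains were higher with a median of 0.65, and 6 of the 7 tested other chains were higher with a median of 0.50, while the remaining one, Col8a1, did not pass the test.

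**Figure D2:**
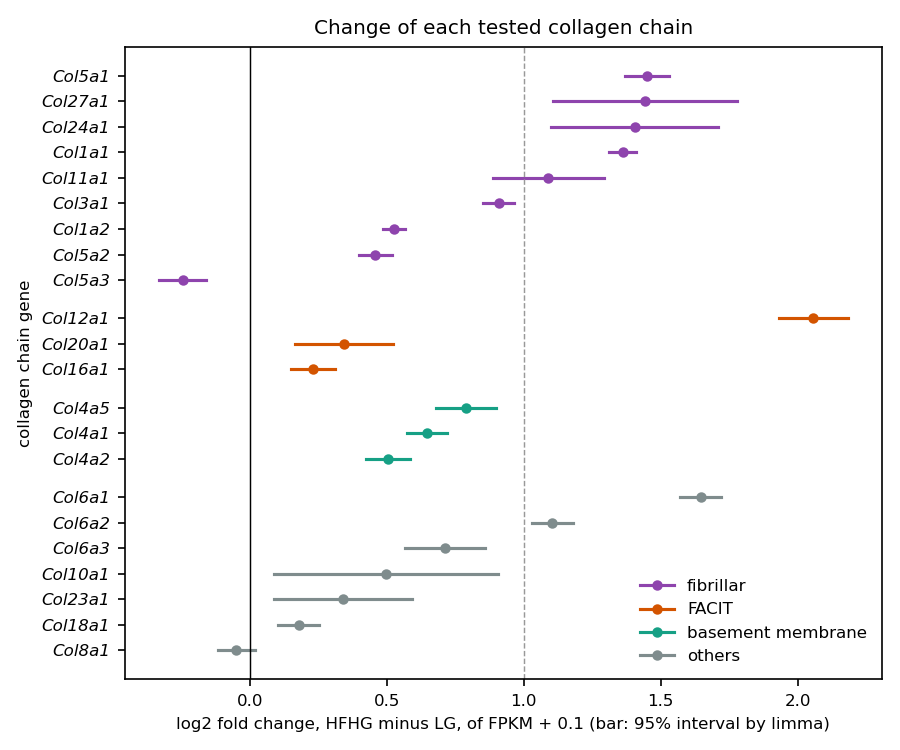
Log2 fold change of FPKM + 0.1, HFHG minus LG, for each tested chain, with the 95% interval from limma. Within each class the chains are sorted by change, the solid line marks no change and the dashed line a fold change of 2. Col12a1 lies farthest to the right at 2.06 and Col5a3 farthest to the left at -0.24.

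Type I collagen is made of a pair of α1 chains and a single α2 chain, the products of Col1a1 on chromosome 11 (94936224 to 94953042) and Col1a2 on chromosome 6 (4504814 to 4541544; positions here and below are those of GRCm38). Col1a1 had 524, 541, 522 and 531 FPKM in HFHG replicates 1 to 4 and 211, 206, 202 and 206 FPKM in LG replicates 1 to 4. Col1a2 had 631, 639, 623 and 623 FPKM in HFHG and 442, 434, 437 and 434 FPKM in LG. Both genes separated the groups without overlap, but Col1a1 was higher by 1.36 on the log2 scale (SE 0.0222, limma adjusted p = 1.95e-13), and Col1a2 by 0.53 on the log2 scale (SE 0.0190, limma adjusted p = 1.25e-10). The ratio of Col1a1 to Col1a2 FPKM was 0.842 ± 0.00953 in HFHG and 0.472 ± 0.00721 in LG (SD, n = 4). In both groups the α2 transcript had the higher FPKM of the pair.

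Type III collagen is a trimer of a single chain, Col3a1 (chromosome 1, 45311538 to 45349706). Col3a1 had 231, 229.8, 230.4 and 224 FPKM in HFHG and 124, 123, 124 and 117 FPKM in LG, and all HFHG libraries lay above all LG libraries. Its rise was 0.91 on the log2 scale (SE 0.0255, limma adjusted p = 1.20e-11), which was less than that of Col1a1, so the ratio of Col3a1 to Col1a1 fell from 0.591 ± 0.0193 in LG to 0.432 ± 0.0102 in HFHG (SD, n = 4). Col3a1 lies next to Col5a2 on the same chromosome, on opposite strands and 24615 bases apart. The log2 fold changes of these neighbours were 0.91 and 0.46.

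Type V collagen, which joins type I in the fibril core and is needed to start fibrils, has 3 chain genes, and each behaved differently. Col5a2 (chromosome 1, 45374321 to 45503282) had the highest FPKM of all collagen chains, with 881, 868, 883 and 886 FPKM in HFHG and 654, 657, 649 and 601 FPKM in LG. Its rise was small but lay outside the spread between libraries, at 0.46 on the log2 scale (SE 0.0278, limma adjusted p = 1.56e-08). Col5a1 (chromosome 2, 27886425 to 28039514) had 112, 114, 109.9 and 111 FPKM in HFHG and 42.7, 41.9, 41.2 and 37.6 FPKM in LG, a rise of 1.45 on the log2 scale (SE 0.0367, limma adjusted p = 5.01e-12).

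Col5a3 (chromosome 9, 20770050 to 20815067), the third chain gene of type V, moved the other way, with 16.9, 16.5, 17.3 and 16.8 FPKM in HFHG and 21.1, 19.5, 20.4 and 19.1 FPKM in LG. It was the only collagen chain that fell at the adjusted p threshold. The log2 fold change was -0.24 (SE 0.0396, limma adjusted p = 1.41e-04). The ratio of Col5a3 to Col5a1 fell from 0.490 ± 0.0183 in LG to 0.151 ± 0.00493 in HFHG (SD, n = 4), the widest shift of the 10 ratios tested. The ratio of Col5a1 to Col5a2 was 0.127 ± 0.00298 in HFHG and 0.0638 ± 0.00108 in LG (SD, n = 4). Col5a1 kept closer to Col1a1, and that ratio was 0.211 ± 0.00227 in HFHG and 0.198 ± 0.0102 in LG (SD, n = 4), with LG replicate 4 the lowest at 0.183.

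To show the DNA around the starts of the type V chains that moved in opposite directions, the RefSeq promoter windows (250 bases before to 50 after the annotated start, GRCm38.p6) of Col5a1, chr2:27886175-27886474 on the plus strand, and of Col5a3, chr9:20815018-20815317 on the minus strand, are given 5′ to 3′, with capitals marking the letters CCAAT on either strand. The Col5a1 window holds no such match and the Col5a3 window holds 1, starting 122 bases before the annotated start. GGGCGG, which is not marked, is in both windows. CCAAT was also in windows of Col1a2, Col4a1, Col4a2, Col4a5, Col11a1, Col16a1 and Col18a1, which were higher in HFHG. A link between these letters and the direction of change was not tested.
Col5a1: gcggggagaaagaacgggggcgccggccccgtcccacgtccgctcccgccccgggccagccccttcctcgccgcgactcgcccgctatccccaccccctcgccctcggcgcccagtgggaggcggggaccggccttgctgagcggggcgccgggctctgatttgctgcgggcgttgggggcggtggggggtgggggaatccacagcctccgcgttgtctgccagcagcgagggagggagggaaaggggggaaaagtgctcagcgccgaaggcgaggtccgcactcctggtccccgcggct
Col5a3: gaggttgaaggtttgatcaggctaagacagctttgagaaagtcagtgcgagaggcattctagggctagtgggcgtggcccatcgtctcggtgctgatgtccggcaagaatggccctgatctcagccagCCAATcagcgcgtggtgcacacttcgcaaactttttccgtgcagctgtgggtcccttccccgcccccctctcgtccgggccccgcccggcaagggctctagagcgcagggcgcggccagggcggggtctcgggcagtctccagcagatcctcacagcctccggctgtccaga
Promoter windows matched 35 of the 44 chains, in 38 windows, and Col1a1, Col5a2 and Col12a1 were not among those matched. CCAAT, read on both strands (its reverse complement is ATTGG), occurred in 13 of the 38 collagen windows (34.2%) and in 37.4% of all 32851 windows. TATAAA, searched the same way, was in 13.2% of the collagen windows and 13.6% of all, and GGGCGG in 60.5% of the collagen windows and 35.7% of all. A match is a run of letters and is not evidence that a factor bound there.

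The remaining fibrillar chains had low levels. Col11a1, the α1 chain of type XI, had 3.72, 3.78, 3.80 and 4.05 FPKM in HFHG and 1.78, 2.1, 1.63 and 1.53 FPKM in LG, and its rise was 1.09 on the log2 scale (SE 0.0931, limma adjusted p = 4.29e-07). Col11a1 rose less than Col5a1, and their ratio fell from 0.0430 ± 0.00481 in LG to 0.0343 ± 0.00155 in HFHG (SD, n = 4). Col24a1 had 1.81, 1.49, 1.87 and 1.90 FPKM in HFHG and 0.814, 0.556, 0.559 and 0.516 FPKM in LG, with LG replicate 1 above the other LG libraries but below every HFHG library. Its log2 fold change was 1.40 (SE 0.139, limma adjusted p = 1.80e-06).

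Col27a1 had 0.819, 1.06, 0.902 and 0.845 FPKM in HFHG and 0.304, 0.335, 0.207 and 0.244 FPKM in LG. No LG library reached 0.5 FPKM, so this chain entered the test only through HFHG, and its log2 fold change of 1.44 (SE 0.154, limma adjusted p = 3.64e-06) is given as a description. The other two fibrillar chains, Col2a1 and Col11a2, fell below the filter.

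Among the FACIT chains, Col12a1, which encodes the type XII chain found on fibrils of dense connective tissue, had the largest fold change of the tested collagen chains. The gene lies on chromosome 9 (79598991 to 79718831). Col12a1 had 136, 141, 141 and 148 FPKM in HFHG and 35.9, 36.2, 34.7 and 29.3 FPKM in LG, and the groups were far apart. The rise was 2.06 on the log2 scale (SE 0.0573, limma adjusted p = 1.16e-11). Against Col1a1, whose fibrils type XII decorates, the ratio was 0.267 ± 0.00908 in HFHG and 0.165 ± 0.0153 in LG (SD, n = 4).

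Col16a1, another FACIT chain, had 42.7, 41.3, 39.9 and 40.6 FPKM in HFHG and 36.1, 35.0, 36.1 and 32.9 FPKM in LG and a log2 fold change of 0.23 (SE 0.0367, limma adjusted p = 1.20e-04). Col20a1 had 2.17, 2.16, 2.49 and 2.08 FPKM in HFHG and 1.71, 1.68, 1.71 and 1.81 FPKM in LG and a log2 fold change of 0.35 (SE 0.0820, limma adjusted p = 0.00254). Both rises were small and without overlap between the groups. Col14a1, the type XIV chain that like type XII binds the fibril surface, had 0.154, 0.167, 0.176 and 0.173 FPKM in HFHG and 0.148, 0.248, 0.270 and 0.194 FPKM in LG, and the groups overlapped (exact two-sided permutation test, p = 0.2). The ratio of Col14a1 to Col12a1 was 0.00118 in HFHG and 0.00633 in LG, given as values only because Col14a1 was below the filter. The type IX, XIX and XXII chains were also below the filter.

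Of the 6 type IV chains, Col4a1 and Col4a2, which together make the most widespread basement membrane trimer, carried most of the signal. Col4a1 (chromosome 8, 11198423 to 11312826) had 97.4, 99.5, 100.4 and 98.8 FPKM in HFHG and 65.5, 64.6, 64.1 and 58.8 FPKM in LG. Col4a2 (chromosome 8, 11312805 to 11449287) had 101, 104, 103 and 102 FPKM in HFHG and 75.2, 72.8, 75.2 and 66.6 FPKM in LG. The rises were 0.65 on the log2 scale (SE 0.0333, limma adjusted p = 3.51e-09) for Col4a1 and 0.50 on the log2 scale (SE 0.0367, limma adjusted p = 9.46e-08) for Col4a2, and neither gene's groups overlapped. LG replicate 4 was the lowest library for both.

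These genes are transcribed away from each other from a shared start region, so the promoter windows of both are given with the 78 bases that they share (11312777 to 11312854 on chromosome 8) in capitals. The Col4a1 window is chr8:11312777-11313076 on the minus strand and the Col4a2 window is chr8:11312555-11312854 on the plus strand (GRCm38.p6, RefSeq).
Col4a1: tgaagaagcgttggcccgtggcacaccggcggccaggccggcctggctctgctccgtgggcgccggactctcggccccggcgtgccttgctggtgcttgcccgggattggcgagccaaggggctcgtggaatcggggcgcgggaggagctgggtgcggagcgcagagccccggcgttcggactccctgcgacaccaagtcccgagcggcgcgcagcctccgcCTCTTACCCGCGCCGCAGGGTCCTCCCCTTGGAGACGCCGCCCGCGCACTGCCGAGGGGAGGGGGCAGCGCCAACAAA
Col4a2: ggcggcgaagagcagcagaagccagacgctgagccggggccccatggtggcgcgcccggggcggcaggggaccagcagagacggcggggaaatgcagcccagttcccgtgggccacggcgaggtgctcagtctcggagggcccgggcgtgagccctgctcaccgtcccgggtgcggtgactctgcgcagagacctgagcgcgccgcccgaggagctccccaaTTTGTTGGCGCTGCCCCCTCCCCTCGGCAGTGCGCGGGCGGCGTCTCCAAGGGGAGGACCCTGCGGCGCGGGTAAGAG
The ratio of Col4a1 to Col4a2 was 0.965 ± 0.00966 in HFHG and 0.873 ± 0.0154 in LG (SD, n = 4), so the 2 transcripts of the pair rose by nearly but not exactly the same amount. Their annotated first exons overlap on opposite strands, and whether the counting used strand is not given in the sources used here.

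Col4a5, on the X chromosome (141475385 to 141689234), had 17.4, 16.9, 17.8 and 17.8 FPKM in HFHG and 10.2, 10.6, 10.5 and 9.07 FPKM in LG and a log2 fold change of 0.79 (SE 0.0507, limma adjusted p = 2.80e-08). Its head-to-head neighbour Col4a6, 1309 bases away, was below the filter with 0.103, 0.134, 0.119 and 0.0849 FPKM in HFHG and 0.0819, 0.0529, 0.0542 and 0.0498 FPKM in LG, where the HFHG libraries still lay above the LG libraries (exact two-sided permutation test, p = 0.0286). Col4a3 and Col4a4, the chains of kidney and lung basement membranes, lie 72 bases apart on chromosome 1 and stayed at or below 0.104 FPKM in all libraries, with overlapping groups.

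Type VI collagen is assembled from 1 chain each of Col6a1, Col6a2 and Col6a3 or a related chain. Col6a1 (chromosome 10, 76708792 to 76726168) had 57.0, 55.8, 57.7 and 58.0 FPKM in HFHG and 18.3, 18.1, 17.3 and 19.1 FPKM in LG. Col6a2 (chromosome 10, 76595762 to 76623630) had 29.5, 31.0, 30.9 and 31.1 FPKM in HFHG and 14.1, 14.7, 14.2 and 13.9 FPKM in LG. Col6a3 (chromosome 1, 90765923 to 90843971) had 4.89, 4.96, 4.92 and 5.18 FPKM in HFHG and 3.19, 2.77, 3.21 and 2.87 FPKM in LG. All 3 were higher in HFHG in every library, but in unequal measure, with log2 fold changes of 1.65 (SE 0.0341, limma adjusted p = 8.45e-13), 1.10 (SE 0.0340, limma adjusted p = 2.75e-11) and 0.71 (SE 0.0664, limma adjusted p = 9.88e-07).

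The Col6a3 transcript was the scarcest of the 3 in both groups on the FPKM scale. The ratio of Col6a1 to Col6a2 was 1.87 ± 0.0537 in HFHG and 1.28 ± 0.0698 in LG (SD, n = 4), and the ratio of Col6a3 to Col6a1 fell from 0.166 ± 0.0170 in LG to 0.0873 ± 0.00214 in HFHG (SD, n = 4). Col6a1 and Col6a2 lie on the same strand, 85162 bases apart. Of the related chains Col6a4, Col6a5 and Col6a6, none reached the filter.

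**Figure D3:**
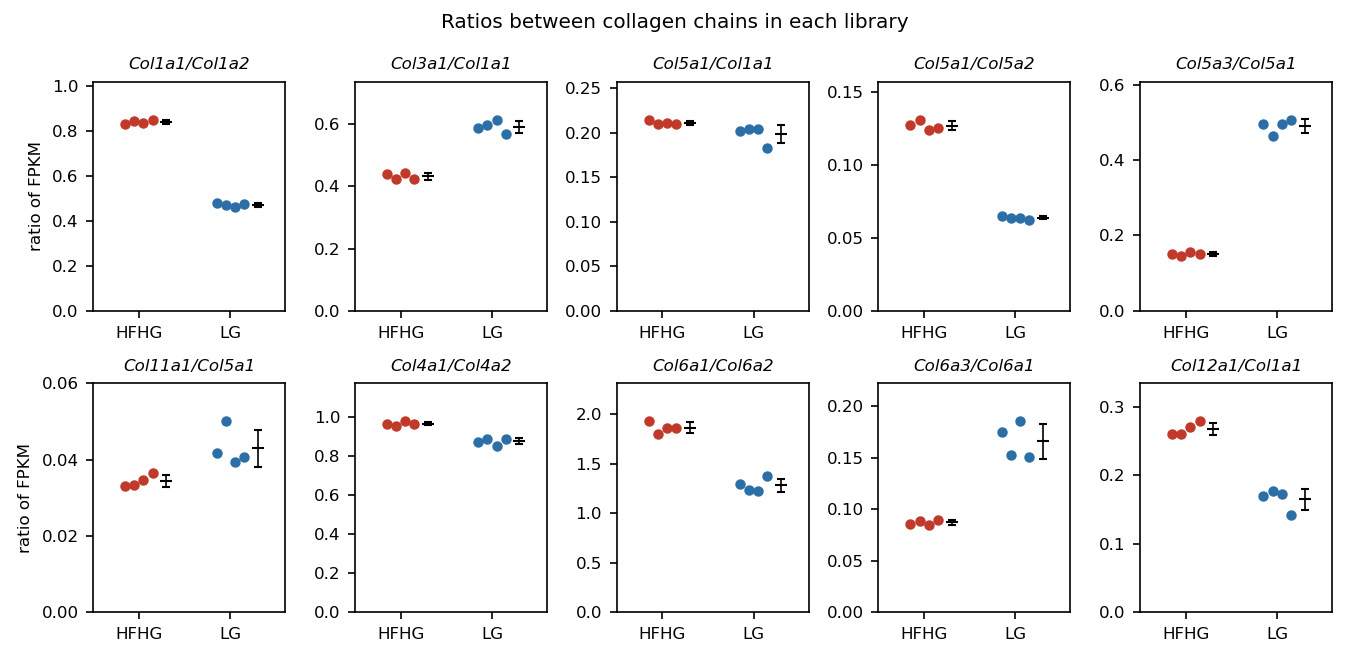
Ratios of FPKM between pairs of chains in each library (points; HFHG red, LG blue) with the mean and SD of each group beside them, on linear axes that start at 0. In each of the 10 pairs the HFHG and LG libraries do not overlap, and the gap is narrow for Col5a1/Col1a1 and wide for Col5a3/Col5a1.

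The 10 ratios were each compared by exact permutation of the 4 HFHG and 4 LG labels, with 70 possible orders and both sides counted, and each gave p = 0.0286, the smallest value this design allows, with a Benjamini-Hochberg adjusted value of 0.0286 over the 10. A ratio is taken within a library, so the scaling of the library cancels in the printed ratios, while the tested ratios have 0.1 FPKM added to each chain and so keep a small part of it.

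The network-forming chain Col8a1 was the exception among the abundant chains. By mean FPKM it was number 5 of the 44 chains in LG and number 9 in HFHG, and it had 88.2, 86.9, 85.8 and 90 FPKM in HFHG and 90.7, 93.9, 92.8 and 85.6 FPKM in LG, with overlapping groups. Its log2 fold change was -0.05 (95% interval -0.12 to 0.02, adjusted p = 0.198, limma), and the sign turned with the scaling of the libraries, to 0.01 after rescaling to the same sum and 0.02 after quantile normalization. Without LG replicate 4 the log2 fold change was -0.08 with a limma adjusted p of 0.0184. Its partner Col8a2 was below the filter with 0.502, 0.340, 0.490 and 0.507 FPKM in HFHG and 0.0715, 0.172, 0.138 and 0.132 FPKM in LG, and the HFHG libraries lay above the LG libraries (exact two-sided permutation test, p = 0.0286). The ratio of Col8a1 to Col8a2 was 196 ± 39.5 (SD, n = 4) in HFHG and 784 ± 328 (SD, n = 4) in LG, given as values only.

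Col18a1, a multiplexin chain whose end is cut off as endostatin, had 19.9, 20.6, 21 and 20.2 FPKM in HFHG and 18.5, 18.1, 17.7 and 17.9 FPKM in LG and a log2 fold change of 0.18 (SE 0.0342, limma adjusted p = 5.34e-04). The transmembrane chain Col23a1 had 0.967, 0.832, 0.906 and 0.998 FPKM in HFHG and 0.663, 0.640, 0.765 and 0.775 FPKM in LG and a log2 fold change of 0.34 (SE 0.116, limma adjusted p = 0.0211). Col10a1, the chain of hypertrophic cartilage, had 1.07, 1.12, 0.683 and 0.892 FPKM in HFHG and 0.428, 0.607, 0.802 and 0.727 FPKM in LG and a log2 fold change of 0.50 (SE 0.188, limma adjusted p = 0.0340), and its groups overlapped. The adjusted p of Col23a1 rose to 0.0577 when HFHG replicate 4 was left out, and was also above the threshold without HFHG replicate 1 (0.0526), LG replicate 1 (0.0534) or LG replicate 2 (0.0561, limma). That of Col10a1 rose to 0.101 without LG replicate 1 (limma), and it lies within Nt5dc1 on the opposite strand.

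The summed level shows how the changes of single chains add up. Over the 44 chains it was 3004, 3024, 3005 and 3019 FPKM in the HFHG libraries and 1872, 1855, 1848 and 1758 FPKM in the LG libraries, a ratio of the means of 1.64, and collagen took 1.91% to 1.92% of library reads in HFHG and 1.08% to 1.16% in LG. Fibrillar chains held 79.8% ± 0.217 (SD, n = 4) of the summed collagen FPKM in HFHG and 80.2% ± 0.310 (SD, n = 4) in LG, and these values overlapped. The FACIT share was 6.17% ± 0.129 in HFHG and 3.90% ± 0.154 in LG, while the basement membrane share was 7.28% ± 0.0741 and 7.96% ± 0.205 and the share of other chains 6.80% ± 0.0789 and 8.0% ± 0.101 (SD, n = 4 each).

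The fibrillar share overlapped between the groups on the FPKM scale only, since by reads it was 76.0% to 76.7% in HFHG and 78.5% to 79.3% in LG. Single chains differed in their shares of collagen FPKM. Col1a1 held 17.6% of collagen FPKM in HFHG and 11.2% in LG, and Col5a1 held 3.71% and 2.23%. Col5a2 went the other way with 29.2% and 34.9%, as did Col1a2 with 20.9% and 23.8%, although both rose in absolute FPKM. Col12a1 held 4.70% in HFHG and 1.85% in LG, and Col8a1 held 2.91% and 4.95%. These shares are a description and were not tested.

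**Figure D4:**
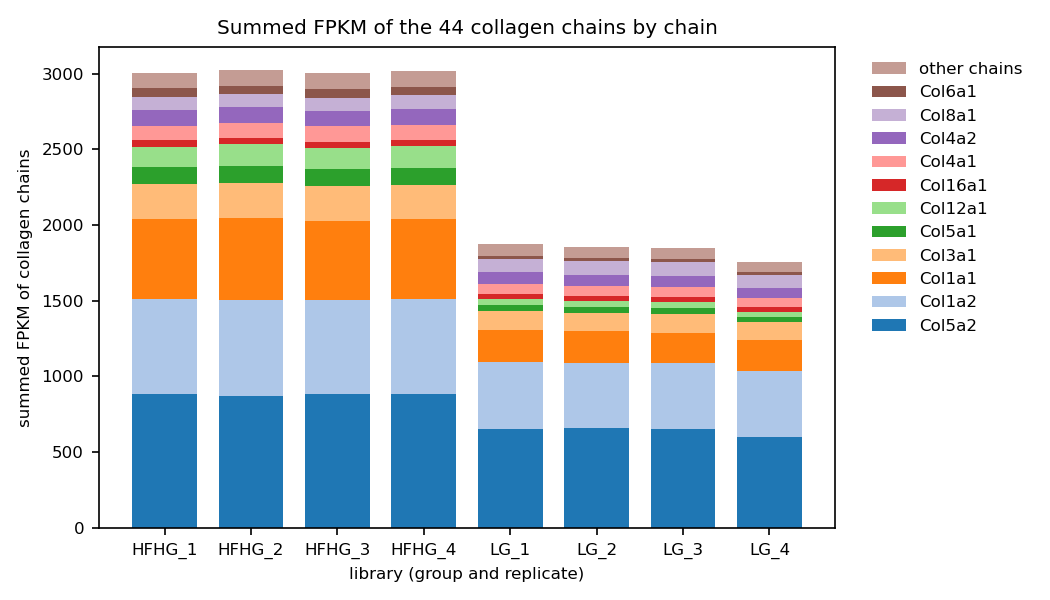
Summed FPKM of the 44 collagen chains in each library, stacked by chain, with the 11 most abundant chains named and the rest together. The HFHG bars reach 3004 to 3024 FPKM and the LG bars 1758 to 1872 FPKM, and the Col1a1, Col5a1 and Col12a1 segments are taller in HFHG while the Col8a1 segment has about the same height in both.

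Below the filter were 22 chains, and all had a mean under 0.5 FPKM. In 6 of them the HFHG libraries lay above the LG libraries without overlap (27.3%), against 6.94% of the 7591 genes below the filter, and in none did they lie below, against 2.27%. The 6 were Col9a3, Col4a6, Col6a6, Col7a1, Col8a2 and Col15a1, each with p = 0.0286 in the exact two-sided permutation test, the smallest possible. These p-values are not adjusted for the 22 chains compared. The 7591 genes were not matched to the chains by number of reads, and the part of read number in this contrast was not tested. Col15a1, a multiplexin chain of vessel and muscle basement membranes, had 0.166, 0.175, 0.272 and 0.247 FPKM in HFHG and 0.0438, 0.0880, 0.0743 and 0.0475 FPKM in LG. Col7a1, the chain of anchoring fibrils, had 0.506, 0.422, 0.405 and 0.450 FPKM in HFHG and 0.397, 0.238, 0.241 and 0.219 FPKM in LG, and LG replicate 1 came close to the lowest HFHG library. Col9a3, a type IX chain that overlaps Tcfl5 on the opposite strand, had 0.364, 0.366, 0.674 and 0.531 FPKM in HFHG and 0.283, 0.187, 0.174 and 0.182 FPKM in LG. Col6a6 had 0.236, 0.246, 0.219 and 0.198 FPKM in HFHG and 0.179, 0.140, 0.132 and 0.124 FPKM in LG.

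In the remaining 16 chains the groups overlapped. These were Col2a1, Col11a2, Col9a1, Col9a2, Col14a1, Col19a1, Col22a1, Col4a3, Col4a4, Col6a4, Col6a5, Col13a1, Col17a1, Col25a1, Col26a1 and Col28a1. Of these, Col19a1, Col22a1, Col6a4, Col6a5, Col13a1, Col25a1 and Col26a1 stayed at or below 0.0961 FPKM in every library. Col28a1 ranged from 0.272 to 0.452 FPKM in HFHG and from 0.163 to 0.301 FPKM in LG, and Col17a1 from 0.0725 to 0.266 and from 0.0737 to 0.109 FPKM. Col22a1, Col6a5 and Col28a1 came nearest to separating the groups, each with p = 0.0571 in the exact two-sided permutation test. The chain with the fewest reads was Col26a1, with 32 reads over the 8 libraries, and differences in the chains with so few reads were not detectable at this depth.

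Chains typical of cartilage varied between libraries of the same group. Col2a1, the main fibrillar chain of cartilage, had 0.141, 0.139, 0.802 and 0.511 FPKM in HFHG and 0.327, 0.431, 0.374 and 0.0859 FPKM in LG, which is 31, 29, 170 and 110 reads in HFHG and 66, 92, 78 and 18 reads in LG. Col9a1, the FACIT chain that sits on type II fibrils, had 0.0190, 0.0268, 0.197 and 0.188 FPKM in HFHG and 0.0760, 0.0979, 0.114 and 0 FPKM in LG, which is 3, 4, 30 and 29 reads and 11, 15, 17 and 0 reads. Col11a2 had 0.311, 0.296, 0.556 and 0.640 FPKM in HFHG and 0.380, 0.306, 0.372 and 0.156 FPKM in LG. HFHG replicates 3 and 4 were highest and LG replicate 4 lowest for these 3 chains, and the groups overlapped. Col9a2 was highest in HFHG replicate 3, at 0.496 FPKM, and lowest in LG replicate 4, at 0.0205 FPKM. All 6 chondrocyte markers (Acan, Sox9, Matn3, Cnmd, Hapln1 and Ucma) were below the filter. Together they made 0.823 to 1.13 FPKM in HFHG and 0.678 to 0.901 FPKM in LG. Their sum was also highest in HFHG replicates 3 (1.13 FPKM) and 4 (1.07 FPKM) and lowest in LG replicate 4 (0.678 FPKM). The part of these markers in the values of the chains was not tested.

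**Figure D5:**
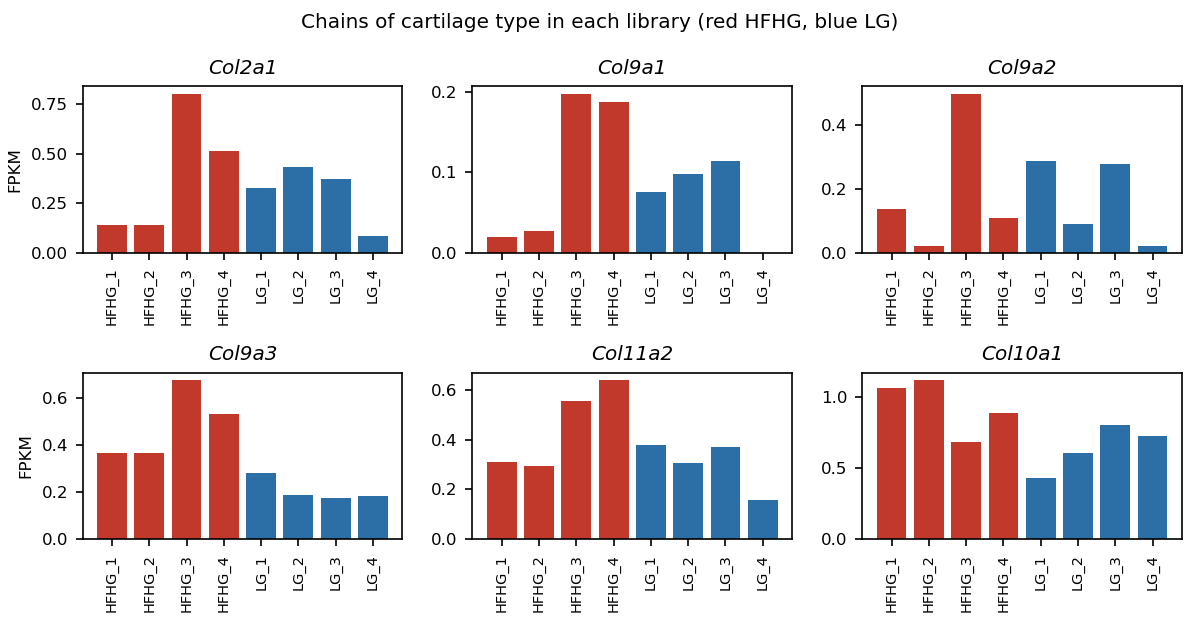
FPKM of 6 chains of cartilage type in each library (bars from 0; HFHG red, LG blue; each panel has its own axis). Col2a1, Col9a1 and Col11a2 are highest in HFHG replicates 3 and 4 and lowest in LG replicate 4, while Col10a1 follows another order and Col9a3 is higher in all HFHG libraries.

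The enzymes and receptors that act on collagen were read from the same limma fit, as 6 lists of 54 genes in all, of which 46 were tested, 25 were higher in HFHG, 16 were lower and 5 did not pass. Of the hydroxylases and their partners, which modify the chains in the endoplasmic reticulum, 9 of 15 were lower and 4 were higher (median log2 fold change -0.14), where 30.8% and 34.0% of all genes tested were. P4ha3, a prolyl 4-hydroxylase subunit, rose most, with 7.37, 6.25, 6.84 and 7.24 FPKM in HFHG and 1.78, 2.13, 2.27 and 2.52 FPKM in LG (log2 fold change 1.64, limma adjusted p = 1.19e-08), and P3h4, a partner of lysyl hydroxylation, also rose (log2 fold change 0.76, limma adjusted p = 1.61e-09). The largest falls were those of the prolyl 3-hydroxylase P3h2 (log2 fold change -1.02, limma adjusted p = 1.40e-05) and of the collagen galactosyltransferase Colgalt2 (log2 fold change -0.84, limma adjusted p = 7.13e-06).

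Chaperone and secretion genes were split, with 5 of 9 higher and 4 lower, where 34.0% and 30.8% of all genes tested were. The collagen chaperone Fkbp10 (log2 fold change 0.78, limma adjusted p = 4.80e-11) and the coat protein Sec23a (log2 fold change 0.66, limma adjusted p = 1.34e-08) rose, and the disulfide isomerase Pdia3 (log2 fold change -0.67, limma adjusted p = 8.83e-12) and the export receptor Mia2 (log2 fold change -0.59, limma adjusted p = 3.49e-08) fell. Of 5 tested procollagen proteinases and enhancers, 4 rose and 1 fell, against the same shares of all genes, and those that rose include Bmp1, which removes the C-propeptide (log2 fold change 0.56, limma adjusted p = 5.19e-09), and its enhancer Pcolce2 (log2 fold change 0.70, limma adjusted p = 0.00155), while the N-proteinase Adamts14 fell (log2 fold change -0.87, limma adjusted p = 9.58e-07).

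All 5 lysyl oxidases, which cross-link the finished fibril, were higher (median log2 fold change 0.60), against 34.0% of all genes tested. Lox had 3060.0, 3097, 3089 and 3154 FPKM in HFHG and 1542, 1586, 1556 and 1483 FPKM in LG, with no overlap between the groups. The rise was 1.01 on the log2 scale (limma adjusted p = 2.09e-12) for Lox and 1.18 on the log2 scale (limma adjusted p = 2.74e-11) for Loxl3. Of the 6 tested receptors, 3 rose and 1 fell (34.0% and 30.8% of all genes tested did). After rescaling to the same sum 5 rose and 1 fell, and after quantile normalization 5 rose and none fell, as Itgb1 did not pass there (log2 fold change -0.07, limma adjusted p = 0.0940). Itga11, the integrin chain that binds fibrillar collagen, had 4.77, 5.01, 5.37 and 6.04 FPKM in HFHG and 1.27, 1.15, 1.19 and 1.35 FPKM in LG (log2 fold change 2.01, limma adjusted p = 7.27e-10). Itga1, which binds basement membrane collagen as well, also rose (log2 fold change 1.02, limma adjusted p = 9.56e-06), and the common partner of both, Itgb1, fell (log2 fold change -0.25, limma adjusted p = 3.91e-07). Of the 6 tested fibril regulators, 4 rose and 1 fell, where 34.0% of all genes tested were higher and 30.8% lower. The collagen-binding matrix protein Sparc (log2 fold change 0.85, limma adjusted p = 5.09e-12) and the small proteoglycan lumican, Lum (log2 fold change 0.47, limma adjusted p = 2.93e-05), rose, and fibronectin, Fn1, fell (log2 fold change -0.78, limma adjusted p = 9.22e-10). Decorin, Dcn, which binds the fibril surface, had 605 ± 16 FPKM in HFHG and 609 ± 15.6 FPKM in LG (SD, n = 4; log2 fold change -0.01, limma adjusted p = 0.768).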

How the data were processed

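The authors deposited FPKM values of 19301 genes for 8 libraries of mRNA from mouse TSCs, made with a stranded kit, and the replicates were not pooled. The submitters' processing notes name HISAT2 2.1.0 and mm10. The counting program, its use of strand, the annotation and any filter are not given in the sources used here, so overlapping genes are uncertain. Whole reads were recovered from the FPKM for 19295 genes (99.97%, within 0.001 reads of a whole number) and used for depth and as an alternative.

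The filter kept the 11710 genes that reached 0.5 FPKM in 4 or more libraries, and these were fitted with limma 3.58.1 in R 4.3.3 on log2(FPKM + 0.1) with an intensity trend and no covariate, with Benjamini-Hochberg adjustment over all genes tested. Fold changes are on that scale and understate the change of low genes. Chains below the filter and ratios of FPKM + 0.1 were compared by exact two-sided permutation tests (Python 3.11.15). The p-values of chains below the filter are unadjusted. The ratios printed are of FPKM without the 0.1. The fit was tested on simulated data. Values in each library are given for chains past a fold change of 2, the 8 chains with the highest mean FPKM and the chains of 12 fixed ratios. Of each list of collagen enzymes and receptors, up to 2 genes with the largest rise and 2 with the largest fall at an adjusted p below 0.05 are named. Other chains were chosen after their values were seen, and so were Dcn and the marker genes named. The members and lists were chosen with earlier results of these data known. Positions are from GENCODE M21 and promoters from RefSeq (both GRCm38). Alternatives covered the pseudocount, the filter, the scaling, the replicate number as a block, voom on recovered reads and each library left out. Those for collagen enzymes and for chains below the filter were added after the data were seen.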

Additional observations from a re-analysis of the deposited data

Results flagged for a closer look

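In groups of 4 libraries, 12 of 112 values checked had a highest or lowest library whose gap to the nearest other exceeded Dixon's 95% critical value, which chance gives in about 1 in 20 groups. LG replicate 1 was the highest of its group for Col24a1 (0.814 FPKM, others 0.516 to 0.559), Col9a3 (0.283 FPKM, others 0.174 to 0.187), Col4a6 (0.0819 FPKM, others 0.0498 to 0.0542) and Col7a1 (0.397 FPKM, others 0.219 to 0.241). LG replicate 4 was the lowest for Col5a2 (601 FPKM, others 649 to 657) and for the ratio of Col5a1 to Col1a1 (0.183, others 0.202 to 0.204), and LG replicate 3 was the lowest for Col6a4 (0.0144 FPKM, others 0.0575 to 0.0599). HFHG replicate 1 was the lowest for Col6a2 (29.5 FPKM, others 30.9 to 31.1) and HFHG replicate 4 for Col3a1 (224 FPKM, others 229.8 to 231). HFHG replicate 2 was the lowest for Col8a2 (0.340 FPKM, others 0.490 to 0.507), and the highest for the ratio of Col8a1 to Col8a2 (255, others 175 to 178). HFHG replicate 3 was the highest for Col17a1, a chain of epithelial attachment (0.266 FPKM, others 0.0725 to 0.104).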

How the results depend on the processing

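The direction and call of 19 of the 22 tested chains were the same under every alternative run that gave them a value. With a pseudocount of 1, the chains past a fold change of 2 were 5, those of all genes 197 upward and 106 downward, and those of the collagen enzymes 0 downward, where the last count was also 0 after rescaling to the same sum and ran from 0 to 1 when a library was left out. Col8a1 had a log2 fold change of 0.011 after rescaling to the same sum and 0.016 after quantile normalization, each opposite in sign to the reported value. Its call was gained without LG replicate 4, so that chains lower in HFHG ran from 1 to 2 over the libraries left out. Col10a1 lost its call under 8 alternatives (limma adjusted p up to 0.153) and Col23a1 under 5 (up to 0.187), and Col10a1, Col23a1 and Col27a1 had no value with a minimum of 1 FPKM. Itgb1 had a limma adjusted p of 0.0940 after quantile normalization. Without LG replicate 1, Col14a1 was the 1 chain below the filter that lay lower in HFHG without overlap, and the count ran from 0 to 1. The share of collagen reads in place of FPKM was 76.4% in HFHG and 78.8% in LG for fibrillar chains, 10.5% and 5.76% for FACIT, 7.48% and 8.42% for basement membrane and 5.65% and 7.05% for the other chains; longer transcripts weigh more in reads.

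No sign of pairing by replicate number was seen, as the correlations between same-numbered libraries were -0.0736 to -0.00558. Whether same-numbered cultures shared a source cannot be told from these values or from the labels. With the replicate block, 19 chains were higher and 1 was lower, and 0 of the 10 ratios passed because sign flips over 4 pairs cannot give a small enough p. Depth limits most the chains with few reads, such as Col26a1 and Col13a1.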
